A study of Homo sapiens with 4 samples.

Results

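Open chromatin at 6 genes of the mitochondrial biogenesis program, PPARGC1A, PPARGC1B, PPRC1, NRF1, TFAM and GABPA, was compared between LNCaP cells and an enzalutamide-resistant derivative. These 6 genes, of 20033 protein-coding genes in the RefSeq annotation of GRCh38, were chosen by name, and they were selected on a readout of the same libraries, because PPARGC1A lies in a long stretch of accessible regions found only in LNCaP. The presence or absence of regions around PPARGC1A is therefore given as a description and was not tested. Every ATAC-seq summit within a gene and 50 kb on either side of it was taken, or 500 kb on either side for PPARGC1A.

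ATAC-seq, in which a transposase cuts and tags accessible DNA, was performed on 2 libraries of LNCaP, a prostate cancer cell line labelled as wild type with no treatment named, and on 2 libraries labelled LNCaP-resistance, which are resistance cells treated with enzalutamide, an antiandrogen drug. The labels give the same medium with fetal bovine serum for both lines. By the study's methods the resistant cells came from LNCaP adapted to charcoal-stripped, androgen-depleted serum and then exposed to stepwise higher doses of the drug. The study made several resistant sublines, and the labels do not name which was sequenced. Both resistant libraries carry the same label and are treated as 1 derived line compared with its parent. Effects of the drug, of serum depletion and of long culture cannot be told apart. The replicates also carry a batch label, repeat1 or repeat2, which is shared between the cell types. The labels do not say whether the replicates were separate cultures.

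PGC-1alpha, encoded by PPARGC1A, PGC-1beta, encoded by PPARGC1B, and PRC, encoded by PPRC1, are transcriptional coactivators that do not bind DNA themselves. They are recruited by transcription factors, among them NRF1 and the ETS family factor GABP, whose DNA-binding subunit is encoded by GABPA. These factors act on nuclear genes of mitochondrial proteins, and TFAM, one of their known targets, packages mitochondrial DNA and starts its transcription. In prostate tissue, PGC-1alpha is known as a regulator of oxidative metabolism and has been studied as a metabolic suppressor of prostate cancer spread.

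The deposited lists held 117245 and 107344 summits in LNCaP replicates 1 and 2, and 70866 and 45618 in resistant replicates 1 and 2. A summit is the position of highest signal in a called peak, and its percentile is the percent of summits of that library that it matched or exceeded in score. Each summit was given a window of 250 bp in both directions, and windows that overlapped in any of the 4 libraries were joined, which gave 150917 regions. A region was called LNCaP-only when both LNCaP libraries and neither resistant library had a summit in it, resistant-only by the reverse rule, shared when all 4 libraries had one, and mixed otherwise. The lists carry no read counts, so sequencing depth is unknown, and a missing summit cannot be told apart from a peak that was not detectable at the depth of that library. The 10 luminal markers examined, among them KLK3, KLK2, FOLH1, HOXB13, KRT8 and KRT18, had a summit in each of the 4 libraries. KLK3 ranked low in LNCaP, with highest percentiles of 4.8 and 3.5, and higher in resistant cells, with 82.7 and 60.6. The luminal markers did not move in 1 direction, since TMPRSS2 had 76.9 and 73.7 in LNCaP and 58.5 and 43.4 in resistant cells. The basal keratin gene KRT5 had no summit. The blood marker PTPRC, the fibroblast markers COL1A1 and VIM and the endothelial marker PECAM1 had summits in all 4 libraries, so presence alone does not identify the cell type. The neuroendocrine genes SYP, ENO2 and CHGA also had summits in all 4 libraries. The 3 basal markers together had 12 and 11 summits in LNCaP and 3 and 2 in resistant cells, most of them at TP63, and their part in the results was not tested.

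Sequences upstream of the annotated starts are shown first. Summits of some or all libraries fall on or beside each start shown, except the inner PPARGC1A start. The recognition sequences of NRF1 and GABPA, which are members of this set, also lie in some of these sequences. Each run is the 250 bases before a start in the RefSeq promoter table of GRCh38.p14, written 5′ to 3′ on the strand of the gene. Capitals mark matches to the NRF1 core (GCGC, 2 bases of any kind and GCGC), the ETS core bound by GABPA (CCGGAA), the E-box (CACGTG), the short form of the cAMP response element (TGACG) and the GC box of SP1 (GGGCGG), on either strand. The full cAMP response element (TGACG then TCA) and the ERR element (TCAAGG then TCA) were also searched and did not occur in the runs shown.
PPARGC1A outer start (chr4:24472906-24473155, minus strand): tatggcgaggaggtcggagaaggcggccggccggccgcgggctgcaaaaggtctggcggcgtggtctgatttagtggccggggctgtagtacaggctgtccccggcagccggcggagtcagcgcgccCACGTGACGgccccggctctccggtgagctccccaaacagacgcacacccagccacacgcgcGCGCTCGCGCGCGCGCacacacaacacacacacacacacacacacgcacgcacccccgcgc
PPARGC1A inner start (chr4:23881102-23881351, minus strand): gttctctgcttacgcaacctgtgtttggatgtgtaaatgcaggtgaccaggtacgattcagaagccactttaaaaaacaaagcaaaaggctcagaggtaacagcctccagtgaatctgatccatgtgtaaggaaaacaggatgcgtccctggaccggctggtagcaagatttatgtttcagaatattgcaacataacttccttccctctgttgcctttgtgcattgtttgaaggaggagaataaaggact
PPARGC1B inner start (chr5:149771690-149771939, plus strand): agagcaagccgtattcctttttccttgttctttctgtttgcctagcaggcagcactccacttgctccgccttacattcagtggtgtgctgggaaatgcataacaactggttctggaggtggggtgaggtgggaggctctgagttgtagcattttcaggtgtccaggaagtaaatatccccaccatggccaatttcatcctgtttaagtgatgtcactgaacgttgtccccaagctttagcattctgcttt
TFAM start (chr10:58385160-58385409, plus strand): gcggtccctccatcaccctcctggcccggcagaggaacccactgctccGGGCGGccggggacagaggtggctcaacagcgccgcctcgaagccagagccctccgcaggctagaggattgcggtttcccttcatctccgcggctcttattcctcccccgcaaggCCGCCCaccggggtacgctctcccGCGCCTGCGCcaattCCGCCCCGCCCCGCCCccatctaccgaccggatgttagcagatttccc
GABPA start (chr21:25734722-25734971, plus strand): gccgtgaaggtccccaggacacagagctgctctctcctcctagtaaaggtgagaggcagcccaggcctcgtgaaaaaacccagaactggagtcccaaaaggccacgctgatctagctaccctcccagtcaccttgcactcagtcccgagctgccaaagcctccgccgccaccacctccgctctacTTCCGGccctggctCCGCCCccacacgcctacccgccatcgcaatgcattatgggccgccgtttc

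Of 35116 promoters of the same length, 7.16% held the NRF1 core, 14.5% the ETS core, 6.34% the E-box, 21.2% the short cAMP response form, 42.6% the GC box, 1.65% the full element and 0.319% the ERR element. The TFAM run held an NRF1 core at bases -63 to -54, counted back from the start, and 5 GC boxes. The GABPA run held an ETS core at -65 to -60, a match to the recognition sequence of the factor that the gene itself encodes. The outer PPARGC1A start carried a pair of overlapping NRF1 core matches between -61 and -46 and an E-box at -123 to -118 that overlaps a short cAMP response form at -119 to -115. None of the 7 sequences was found upstream of the inner starts of PPARGC1A and PPARGC1B or of the PPRC1 start.

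The starts of PPARGC1A also differed in base composition. The outer run has 70.8% G and C with 33 CpG dinucleotides, and the inner run has 44% with 4, beside medians of 58% and 11 over all promoters in the table. NRF1 has no entry in the promoter table.

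PPARGC1A, on the minus strand of chromosome 4 (chr4:23792021-24472905), had far fewer accessible regions in the resistant cells across its gene body. LNCaP replicates 1 and 2 had 34 and 33 summits inside the gene, and resistant replicates 1 and 2 had 5 and 3. The groups did not overlap, and the ratio of the mean summit number in resistant cells to that in LNCaP was 0.119. Over all main chromosomes this ratio was 0.518, and over chromosome 4 it was 0.515. These ratios stand beside that of a gene chosen for its LNCaP-only regions, and nothing is read from the difference.

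In the whole window of 1681 kb, LNCaP replicates 1 and 2 had 66 and 64 summits, and resistant replicates 1 and 2 had 19 and 12, a ratio of 0.238. These summits formed 87 regions, of which 40 were LNCaP-only, 3 resistant-only, 8 shared and 36 mixed. The LNCaP-only share was 46.0% of the window's regions, beside 27.5% of all regions and 27.7% of those on chromosome 4. Since the gene was chosen for this stretch, nothing is read from the excess. Of the mixed regions, 28 had a summit in a single LNCaP library and in no other, and 5 in resistant replicate 1 alone.

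The LNCaP-only regions lay mostly in the gene and upstream of it. Inside the gene, 24 of 45 regions were LNCaP-only, 1 was resistant-only and 2 were shared. The 500 kb upstream of the outer start held 34 regions, with 14 LNCaP-only, 2 resistant-only and 6 shared, and the region at the outer start is counted on both sides. The 500 kb beyond the 3′ end held 9 regions, 2 of them LNCaP-only, and LNCaP replicates 1 and 2 had only 6 and 5 summits there, against 4 and 1 in the resistant libraries.

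**Figure D1:**
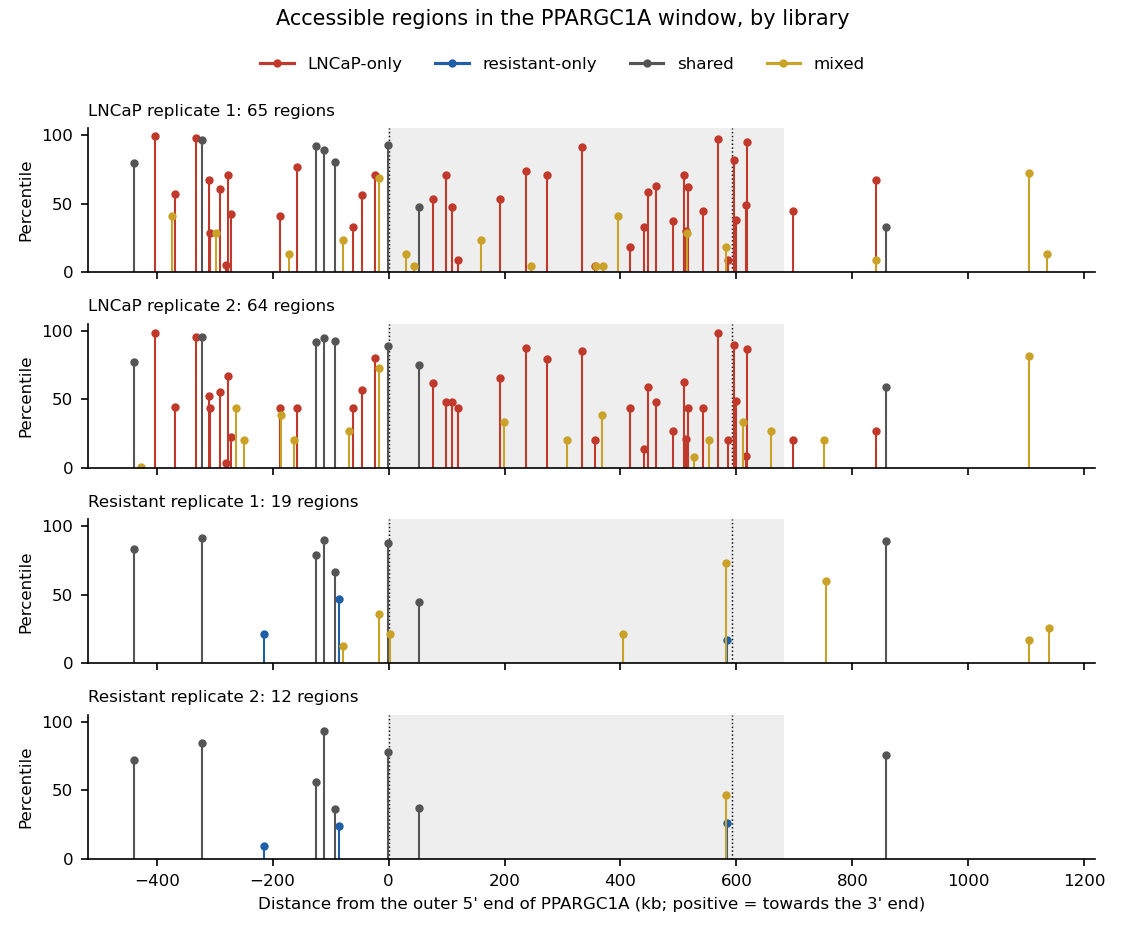
Percentile of each region in the PPARGC1A window (vertical axis) against its distance in kb from the outer 5′ end of the gene (horizontal axis, positive towards the 3′ end), with 1 panel per library. Grey shading marks the gene body and dotted lines mark the outer and inner annotated starts; the gene body is filled with LNCaP-only regions in the LNCaP panels and holds 5 and 3 summits in the resistant panels.

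The 5 LNCaP-only regions with the highest mean LNCaP percentile in the window were all among the stronger regions of their libraries. The strongest lay inside CCDC149, a neighbouring gene upstream, at chr4:24876364-24876872, with percentiles of 99.3 in LNCaP replicate 1 and 98.2 in replicate 2. The next was intragenic, at chr4:23904058-23904574, 23215 bp upstream of the inner start, with 96.7 and 98.2. A further region in CCDC149, at chr4:24804989-24805491, had 97.9 and 95.4. No resistant library had a summit at any of these 3 regions. Further inside PPARGC1A, chr4:23853611-23854111, which lies 27240 bp downstream of the inner start, had 94.6 and 86.7. The region at chr4:24138234-24138745, in the middle of the gene, had 91.1 and 85.1.

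Among regions with a mean LNCaP percentile of at least 80, 7 of 12 in the PPARGC1A window were LNCaP-only, and 5 of 6 inside the gene, beside 21.5% of all regions of that strength. All 7 stayed in both LNCaP libraries when every list was shortened to the same number of its highest-scoring summits. Shortening a list cannot add a resistant summit, so their absence from the resistant lists is no further result. Genome-wide, the share of LNCaP-only regions was lower where the LNCaP signal was stronger, from 77.3% of regions below percentile 20 to 21.5% of those above percentile 80. In the PPARGC1A window all 13 regions below percentile 40 were LNCaP-only, as were 15 of 16 between percentiles 40 and 60 and 5 of 9 between 60 and 80. In the windows of the other 5 genes, 3 of 17 regions above percentile 80 were LNCaP-only.

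**Figure D2:**
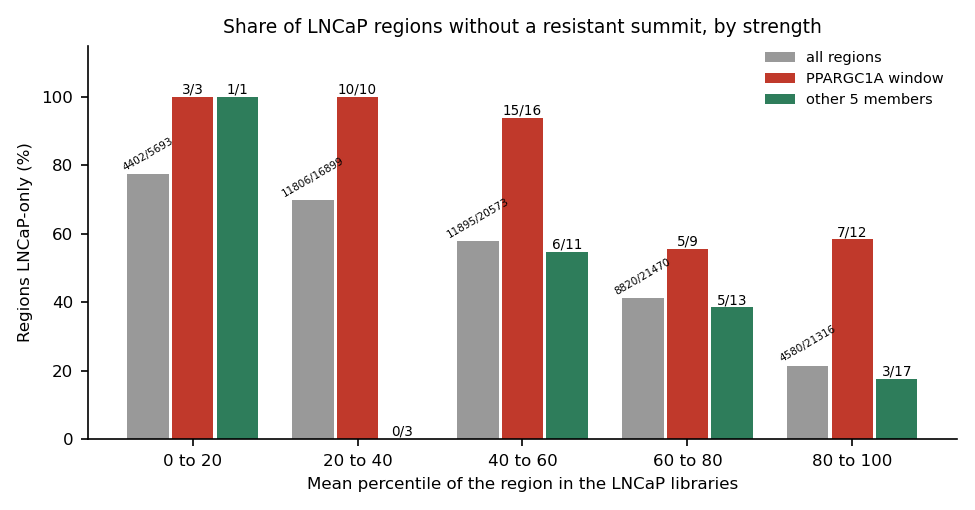
Percent of regions found in both LNCaP libraries that had no resistant summit (vertical axis) by mean LNCaP percentile (horizontal axis), for all regions, the PPARGC1A window and the other 5 genes. Numbers over the bars are LNCaP-only regions of all in the bin; in the highest bin the PPARGC1A window stood at 7 of 12 and the other genes at 3 of 17.

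LNCaP-only regions followed each other along the gene. The longest unbroken run that touched the window held 7 consecutive regions over 96.4 kb, chr4:23959703-24056104, within the gene and upstream of the inner start. Their LNCaP percentiles were moderate, between 13.6 and 70.9. There were 65 runs of at least this length among all chromosomes, and the longest held 12 regions. When mixed regions were skipped and not counted as a break, a run of 19 LNCaP-only regions covered 492 kb of the gene, and over all chromosomes 39 runs were at least as long, the longest with 46.

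The outer start of PPARGC1A stayed accessible. Within 3 kb of it, the strongest summit had percentiles of 92.6 and 88.8 in LNCaP replicates 1 and 2 and of 87.8 and 77.9 in resistant replicates 1 and 2. Both resistant values were below both LNCaP values, and the mean difference was -7.90 percentile points with a pooled SD of 5.31, which did not reach the 10 points used to call a gene. With equal numbers of summits the difference was 2.08 points, in the other direction. The median change over all genes was 14.4 points in that setting, so the start still lay below the typical gene. The summits lay 172 bp upstream of the start in LNCaP replicate 1, 103 bp downstream in LNCaP replicate 2, and 168 and 171 bp upstream in the resistant libraries, so 3 of the 4 fell within the CpG-rich run printed above. At the inner start, in contrast, no library had a summit within 3 kb.

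Near the inner start, the following regions differed between the cell types in presence or percentile. These were singled out after their values were seen, apart from the resistant-only region. LNCaP-only region chr4:23877632-23878147, 3212 bp downstream of the inner start, had percentiles of 82.0 and 89.2. Upstream, region chr4:23889730-23890351 had 73.0 and 46.8 in the resistant libraries, 18.4 in LNCaP replicate 1 and no summit in LNCaP replicate 2. It was counted as mixed, its center was 8952 bp upstream of the inner start, and both resistant values were above that of LNCaP replicate 1. Directly beside it, the resistant-only region chr4:23888940-23889512 had 17.4 and 26.3. The promoter table lists 2 starts for PPARGC1A, and whether another transcript starts at these regions was not determined.

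The other resistant-only regions of the window were weak. Region chr4:24557447-24558017, inside DHX15, an RNA helicase gene, had percentiles of 46.9 and 23.8. At chr4:24687293-24687809, between genes, they were 21.4 and 9.6. The share of resistant-only regions, 3 of 87, stood beside 3.84% of all regions.

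Of the 8 shared regions in the window, 5 were lower in both resistant libraries than in both LNCaP libraries, beside 41.8% of all shared regions, and 1 was higher in both, beside 17.7%. The 5 with the highest percentiles were the following. Region chr4:24584344-24584935, beside the end of DHX15, had 89.0 and 94.3 in LNCaP and 90.1 and 93.4 in resistant cells, with overlapping values. Region chr4:24795250-24795763 had 96.0 and 95.2 in LNCaP and 91.4 and 84.7 in resistant cells, the latter both lower. The outer start region of PPARGC1A is given above. Region chr4:24597894-24598459, upstream of the gene, was lower by more, with 91.8 and 91.8 in LNCaP against 79.2 and 56.0. Region chr4:24912249-24912807 in CCDC149 overlapped between the groups, with 79.6 and 76.8 in LNCaP and 83.3 and 72.3 in resistant cells.

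A single shared region of the window stood higher in the resistant cells, and it is named because it was the exception. It lay downstream of the gene at chr4:23614464-23614997, with 33.2 and 58.6 in LNCaP replicates 1 and 2 and 89.2 and 75.6 in resistant replicates 1 and 2. The mean difference was 36.6 percentile points with a pooled SD of 14.4.

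None of the 40 LNCaP-only regions of the PPARGC1A window lay within 3 kb of an annotated 5′ end of a protein-coding gene, against 4 of its 8 shared regions. Over all regions the shares were 7.10% for LNCaP-only, 24.4% for resistant-only and 39.7% for shared regions. In the windows of the other 5 genes, 2 of 15 LNCaP-only and 9 of 21 shared regions lay that close to a 5′ end. At each of the 6 genes a shared region lay within 3 kb of the outer start, or for NRF1 of its end at the lower coordinate.

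PPARGC1A was also set beside other long genes, as a description. It was chosen for its LNCaP-only regions, and the minimum summit number below was required of the LNCaP libraries alone. Nothing is therefore read from its position among these genes. Of 1254 protein-coding genes of at least 100 kb with at least 10 summits in each LNCaP library, 44, or 3.51%, had a ratio of resistant to LNCaP summits at or below the 0.119 of PPARGC1A, and the median ratio was 0.375. The genes most like it in summits per 100 kb over the 4 libraries, measured as the Euclidean distance between the 4 values, were DSCAML1, JADE3, WDFY3, NCK2 and KAZN, at distances of 0.332 to 0.486. DSCAML1, the nearest, had 20 and 19 summits in LNCaP and 4 and 2 in resistant cells. JADE3 and NCK2 had between 7 and 8 in each LNCaP library and 1 in each resistant library. When every list was shortened to equal numbers, a different set of 5 genes was nearest.

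Counts within each batch label at PPARGC1A are given as a description. The gene was chosen on these same libraries, and the LNCaP list is the longer one in each pair, so nothing is read from their direction. Between the libraries of repeat1, 54 regions of the window had a summit in LNCaP alone and 8 in resistant cells alone. Between those of repeat2 the counts were 56 and 4. Over all regions the LNCaP-alone shares for these pairs were 43.4% and 45.8%, beside 62.1% and 64.4% in the window.

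PPARGC1B, the paralog of PPARGC1A on the plus strand of chromosome 5 (chr5:149730310-149857959), did not show this over its window but differed at 1 of its starts. LNCaP replicates 1 and 2 had 20 and 22 summits in the window and resistant replicates 1 and 2 had 15 and 9, a ratio of 0.571 that lay near the 0.518 of the whole lists. Of 24 regions, 6 were LNCaP-only, none resistant-only, 6 shared and 12 mixed.

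At the outer start of PPARGC1B the strongest summit had percentiles of 70.7 and 70.4 in LNCaP and 82.5 and 69.5 in resistant cells, which overlapped. The inner start, 41.6 kb further along the gene, had 59.4 and 73.6 in LNCaP and no summit in either resistant library. The LNCaP summits there lay 225 and 199 bp upstream of the start, within the printed run, which holds 3 CpG dinucleotides. Thus the accessible inner start was found in LNCaP only, while the outer start was found in all 4 libraries. The inner start had a mean LNCaP percentile of 66.5. Of all regions found in both LNCaP libraries with a mean between percentiles 60 and 80, 41.1% were LNCaP-only. Nothing particular to this start is therefore read from the missing resistant summits.

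The strongest LNCaP-only region in the PPARGC1B window lay in the neighbouring PDE6A gene, at chr5:149872649-149873156, with 86.2 and 84.2. Inside PPARGC1B, 5 regions were LNCaP-only, and the strongest of them, 4936 bp downstream of the inner start, had 79.6 and 85.4. The strongest shared region, at the 3′ end of the gene, had 85.7 and 93.1 in LNCaP and 78.5 and 64.6 in resistant cells. Among the shared regions, 3 of 6 were lower in both resistant libraries and none was higher in both, beside 41.8% and 17.7% of all shared regions.

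The largest difference at a shared region of the 6 genes was 10449 bp upstream of the outer PPARGC1B start, at chr5:149719568-149720134, and it was singled out for that reason. Its percentiles were 89.9 and 86.1 in LNCaP and 29.4 and 23.8 in resistant cells, a difference of -61.4 with a pooled SD of 3.37. A second shared region, inside the gene at chr5:149828355-149828867, had 82.0 and 78.3 against 37.1 and 45.6. In both cases the resistant summits were present but ranked far below the LNCaP summits.

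PPARGC1B also carries, inside the gene, the hairpin of MIR378A, a microRNA known to act on mitochondrial metabolism. It lies 927 bp from the shared region downstream of the outer start, which had 70.7 and 59.6 in LNCaP and 82.5 and 69.5 in resistant cells. Of its mature arms, hsa-miR-378a-3p is shown from RefSeq, with its seed at bases 2 to 8 in capitals, and the 5p arm is not shown.
hsa-miR-378a-3p: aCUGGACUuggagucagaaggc

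PPRC1, the third coactivator gene (chr10:102119889-102150333, plus strand), had similar summit numbers in both cell types. LNCaP replicates 1 and 2 had 12 and 10 summits in the window and resistant replicates 1 and 2 had 11 and 7, and inside the gene the counts were 4 and 3 in either cell type. Of 15 regions 7 were shared, 2 were LNCaP-only and none was resistant-only. At the start listed in the promoter table the percentiles were 98.5 and 86.9 in LNCaP and 96.1 and 98.3 in resistant cells, with overlap. Among its shared regions, 4 of 7 were higher in both resistant libraries and 1 was lower in both, beside 17.7% and 41.8% of all shared regions. Over the 5 genes other than PPARGC1A together, 5 of 21 shared regions were higher in both and 5 lower in both.

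A region 684 bp downstream of that start, singled out after its values were seen, had 56.2 and 55.8 in LNCaP and 74.5 and 64.4 in resistant cells, a difference of 13.5 with a pooled SD of 5.07. The strongest LNCaP-only region of the window lay in NOLC1, a nucleolar protein gene, with 80.2 and 82.2.

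**Figure D3:**
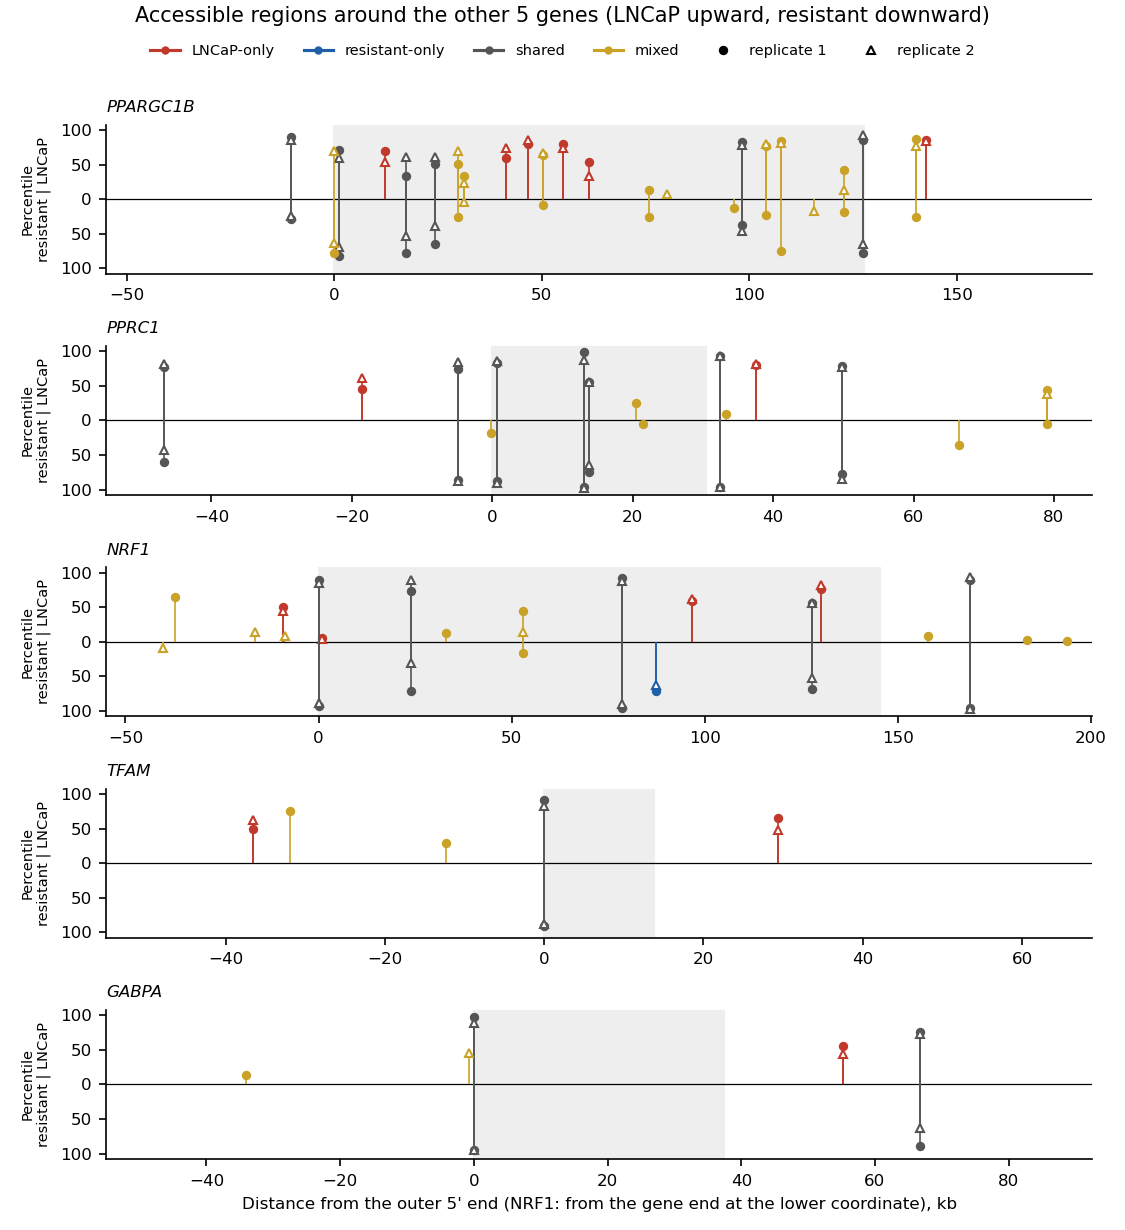
Percentile of each region (vertical axis, LNCaP libraries upward and resistant libraries downward) against the distance in kb from the outer 5′ end of each gene, or for NRF1 from its end at the lower coordinate. Circles are replicate 1 and triangles replicate 2, and grey shading marks the gene body; the region at the main start of each gene reaches high percentiles in both directions.

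NRF1, the transcription factor that binds the core sequence found upstream of TFAM, lies at chr7:129611720-129757076. Its window held 15 and 12 summits in LNCaP replicates 1 and 2 and 7 and 7 in the resistant libraries, a ratio of 0.519 that matched that of the whole lists. Of 19 regions, 4 were LNCaP-only, 1 resistant-only, 5 shared and 9 mixed. At its lower-coordinate end the percentiles were 89.5 and 84.5 in LNCaP and 92.8 and 88.1 in resistant cells, which overlapped, and no library had a summit within 3 kb of the other end.

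NRF1 held the strongest resistant-only region of the 6 genes, inside the gene at chr7:129698865-129699388, with percentiles of 71.0 and 62.3 in resistant replicates 1 and 2. Its strongest LNCaP-only region, chr7:129741585-129742105, also intragenic, had 75.8 and 82.5. The strongest shared region in the window, beyond the gene, had 89.1 and 93.2 in LNCaP and 95.8 and 97.2 in resistant cells. Inside NRF1, then, regions of either cell type alone stood beside an end that was accessible in all 4 libraries.

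TFAM and GABPA had few regions, and the region at each start was shared. The TFAM window had 5 and 3 summits in LNCaP replicates 1 and 2 and 1 in each resistant library, a ratio of 0.25, with 2 of 5 regions LNCaP-only. In the GABPA window there were 4 and 4 against 2 and 2, a ratio of 0.5. With so few summits, the ratios rest on single regions. TFAM (chr10:58385410-58399220, plus strand) had 92.0 and 83.1 in LNCaP and 90.7 and 87.5 in resistant cells at its start. The summit lay 55 bp upstream of the start in LNCaP replicate 1 and 55 and 57 bp upstream in the resistant libraries, within the NRF1 core match, and 262 bp downstream in LNCaP replicate 2. Of the LNCaP-only regions in the TFAM window, the stronger had 65.0 and 47.8.

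GABPA (chr21:25734972-25772460, plus strand) shares its start region with ATP5PF, which encodes a subunit of the mitochondrial ATP synthase. Percentiles there were 97.7 and 89.0 in LNCaP and 94.9 and 95.1 in resistant cells, with summits 17 to 21 bp downstream of the GABPA start in all 4 libraries. Its window held 5 regions, and the single LNCaP-only region had 56.1 and 43.4.

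In all, the windows of the 5 genes other than PPARGC1A held 68 regions, of which 15 were LNCaP-only, or 22.1%, and 1 was resistant-only. These shares lay below or near the 27.5% and 3.84% of all regions. Without LNCaP replicate 2 the LNCaP-only count was 25, and without resistant replicate 1 it was 23, since fewer libraries then have to agree. Within repeat1 and repeat2 the counts were 26 and 27 for LNCaP alone and 6 and 3 for resistant cells alone.

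At the 5′ ends, none of the 6 genes was called. A gene was called when the highest-scoring summits within 3 kb of its 5′ ends did not overlap between the cell types and differed by at least 10 percentile points on average. By this rule 14.9% of 16577 protein-coding genes were higher and 13.8% lower in resistant cells. A gene whose LNCaP mean lies within 10 points of the top cannot be called higher. This holds for PPARGC1A, PPRC1 and GABPA, with LNCaP means of 90.7, 92.7 and 93.3. The changes of the 6 genes ran from -7.90 points at PPARGC1A to 4.48 at PPRC1, with a median of 2.56, beside a median of -0.109 over all genes. The PPARGC1A value is that of its outer start, since no library had a summit within 3 kb of the inner start. The region 8952 bp upstream of the inner start, higher in both resistant libraries than in LNCaP replicate 1, does not enter it. The sign of the median over the 6 genes depended on 1 library, since without LNCaP replicate 2 it was -1.99, with PPRC1, TFAM and GABPA then below 0, and between the libraries of repeat1 it was -1.86. With 2 libraries against 2, an exact permutation test cannot give a p below 0.333, and no test was run on any gene.

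**Figure D4:**
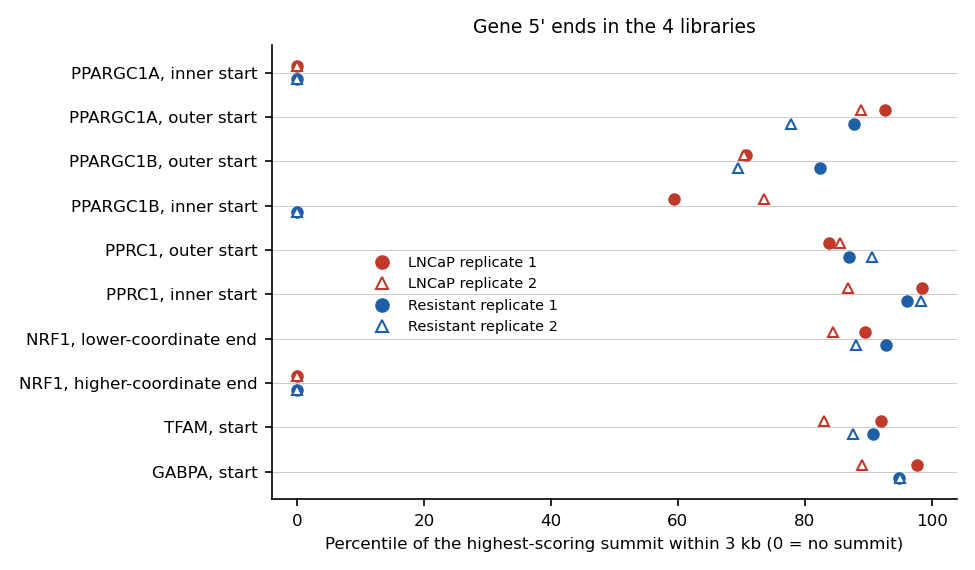
Percentile of the highest-scoring summit within 3 kb (horizontal axis, 0 where a library had none) at each annotated 5′ end, or at either end for NRF1, in the 4 libraries. At the outer PPARGC1A start both resistant points lie below both LNCaP points, and the inner start of PPARGC1B is the only one with a summit in both LNCaP and in neither resistant library.

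The wider pathway was described with 6 lists that together name 117 genes, of which 113 had a summit within 3 kb of a 5′ end in at least 1 library. HNF4A, ADRB3 and G6PC1 were among those with none. Of the 113, 17 were higher in resistant cells, a share close to the 14.9% of all genes, and 6 were lower, or 5.31%, beside 13.8%.

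Targets of PGC-1 in fuel metabolism held the most genes that were higher, with 8 of 23 higher and 1 lower. These shares, 34.8% and 4.35%, stand beside 14.9% and 13.8% of all genes, and the difference was not tested. Of the 8, only ACADL, PDK4, UCP1 and UCP2 kept the call under all alternatives given below. FNDC5 was near the floor, with 0.51 and 1.2 in LNCaP and 26.6 and 5.4 in resistant cells. UCP1, the uncoupling protein of brown fat, had no summit near its start in LNCaP and percentiles of 72.9 and 55.5 in resistant replicates 1 and 2. ACADL, a mitochondrial fatty acid dehydrogenase, had 47.8 and 13.6 in LNCaP and 76.6 and 74.2 in resistant cells. PDK4, the kinase that shuts off pyruvate dehydrogenase, had 61.8 and 57.1 in LNCaP and 97.4 and 98.2 in resistant cells, among the strongest peaks of those libraries. PCK1, which encodes a gluconeogenic enzyme, was the exception, with 28.6 and 64.3 in LNCaP and no summit in resistant cells. The median change of the list was 3.90 points.

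Transcription factor partners of PGC-1 were called in both directions, with 2 of 17 higher and 3 lower. These shares, 11.8% and 17.6%, lay near the 14.9% and 13.8% of all genes. PPARG, the nuclear receptor after which PGC-1 was named, had 44.6 and 43.4 in LNCaP and no summit near its listed starts in resistant cells. RXRA, its dimer partner, had 81.2 and 83.7 against 67.0 and 55.5. ESRRG, an orphan nuclear receptor that PGC-1alpha coactivates, had 94.0 and 90.3 against 79.0 and 64.6. Higher in resistant cells were MEF2A, a muscle regulator that also acts on PPARGC1A, with 44.8 and 62.9 against 73.3 and 63.5, and ESRRB, with 44.7 and 56.5 against 57.3 and 65.2. The median change was -1.41 points.

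Among upstream regulators of PGC-1alpha, 2 of 19 were higher, or 10.5%, and none lower, beside 14.9% and 13.8% of all genes. CAMK4, a calcium-dependent kinase that acts on CREB, had 23.6 and 7.6 in LNCaP and 85.5 and 73.5 in resistant cells, a difference of 63.9 points. TWIST1, a repressor of PGC-1alpha targets in brown fat, had 54.7 and 49.1 against 71.6 and 75.7. The median change of the list was -1.14 points.

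The genes of the mitochondrial machinery itself were mostly not called. In each of the lists that follow, the shares higher and lower lay below the 14.9% and 13.8% of all genes. A gene whose LNCaP mean lies within 10 points of the top cannot be called higher. The median LNCaP percentile was 89.9 for oxidative phosphorylation, 92.5 for mitochondrial DNA and 95.7 for import and dynamics, against 73.4 for the metabolic targets. Their shares of higher genes therefore cannot be compared with that of the metabolic targets. Of 28 oxidative phosphorylation subunit genes with a summit, 3 were higher and 1 lower, and the median change was 0.79 points. NDUFB8, a complex I subunit, had 56.1 and 7.6 in LNCaP and 86.5 and 86.8 in resistant cells. NDUFA10, also of complex I, had 68.9 and 49.6 against 75.7 and 74.7, and COX4I1, of complex IV, had 69.6 and 84.0 against 88.2 and 88.3. SDHA, of complex II, was lower, with 85.3 and 77.4 against 73.4 and 46.1. Genes of mitochondrial DNA transcription and replication had 1 of 13 higher, the helicase TWNK, with 61.8 and 52.2 against 89.3 and 79.5, and 1 lower, the topoisomerase TOP1MT, with a mean of 29.4 in LNCaP against no summit. Of 13 genes of mitochondrial import and dynamics, only PINK1, a kinase of mitochondrial quality control, was called, with 67.2 and 61.9 against 80.6 and 72.0.

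**Figure D5:**
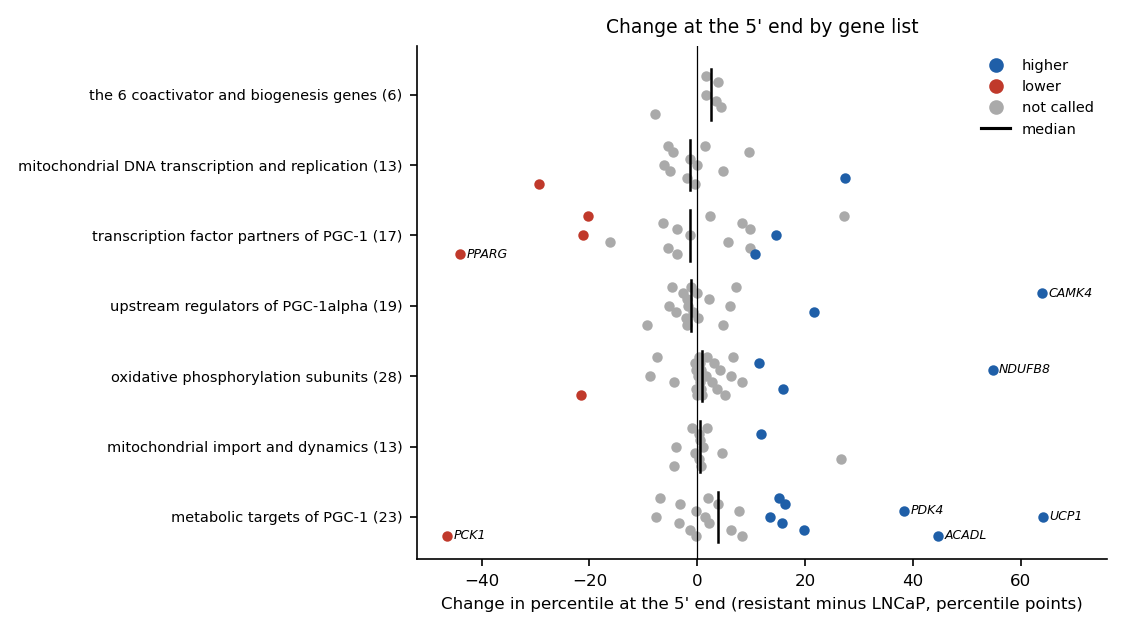
Change in percentile at the 5′ end, resistant minus LNCaP in percentile points (horizontal axis), for each gene with a summit in the 6 lists and for the 6 coactivator and biogenesis genes. Each point is a gene, colored by its call, and black bars are list medians; the medians lie between -1.41 and 3.90 and the largest changes are those of UCP1 and CAMK4.

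A percentile depends on how many weak peaks a list holds, and the resistant lists are shorter. When the lists were shortened to equal numbers of summits, the median change over all genes was 14.4 points, 52.8% of genes were higher and 4.55% lower, and the 6 genes had a median of 15.1. Of the called genes, 8 of the 17 higher (ACADL, CAMK4, NDUFB8, PDK4, TWIST1, TWNK, UCP1 and UCP2) and 1 of the 6 lower (ESRRG) kept their call under all 8 alternatives, which were equal numbers, a minimum score, percentiles among shared regions, a distance of 1 kb, and leaving out each library. PPARG and TOP1MT had no summit left in any library among equal numbers, so their lower call rests on weak LNCaP summits.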

How the data were processed

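The authors prepared ATAC-seq libraries with a commercial kit and deposited 1 list of peak summits per library, called on each library separately. Their processing notes name Bowtie2 2.2.5, SAMtools 1.6, MACS2 2.2.6, deepTools 3.5.2 and HOMER 4.11 and the build hg38. The score deposited with each summit is on a −log10 scale of p or q. The sources used here do not say which. It was used only to rank summits within a library, since longer or deeper lists hold more weak peaks. No summits lay on the mitochondrial genome.

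The members and gene lists were chosen with earlier results of these data known. Regions, classes and percentiles were computed as the report states, and a 5′ end was a start in the RefSeq promoter table or the outer gene end on that strand. For 4191 of 20033 protein-coding genes with no entry in that table, either gene end was used. The regions and genes named follow a rule: in the PPARGC1A window the 5 strongest LNCaP-only, up to 5 resistant-only and 5 strongest shared regions, elsewhere the strongest of each class, up to 3 called genes per list and direction, genes with no summit, and the 5 genes most like PPARGC1A. Regions outside it are said to be singled out. No test was run, since the members were chosen on these values and an exact permutation test of 2 libraries against 2 allows no p below 0.333. The computation was tested on simulated lists. Python 3.11.15, numpy 2.4.6, pandas 2.3.3 and matplotlib 3.10.9 were used.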

Additional observations from a re-analysis of the deposited data

How the results depend on the processing

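PPARGC1A had more LNCaP-only than resistant-only regions under every alternative, and the counts moved with the rule. The gene was chosen for such regions, and over all regions LNCaP-only also outnumbered resistant-only, 41503 to 5793. With equal numbers of summits these totals were 13193 and 11445. Nothing is therefore read from the direction. The main counts were 40 LNCaP-only and 3 resistant-only regions at PPARGC1A, 15 and 1 at the other 5 genes, a longest run of 7, a median change at the 5′ ends of 2.56, and 17 higher and 6 lower genes in the lists. A minimum score of 10 gave 18 and 0 at PPARGC1A. With equal numbers of summits the counts were 13 and 2 at PPARGC1A and 8 and 3 at the other genes, the longest run was 3, the median change was 15.1, and 57 genes of the lists were higher and 1 lower. The LNCaP-only share of the window was then 37.1%, beside 17.1% of all regions. When 1 library sufficed for membership, the counts were 68 and 8, and 29 and 7, with a run of 17. Summit windows of 100 bp gave a run of 4, and skipping mixed regions a run of 19. The gene body alone held 24 and 1, a flank of 50 kb held 1 resistant-only region, and flanks of 100 kb at the other genes held 26 and 4. Percentiles among shared regions gave a median change of 12.5 and 45 higher genes, against a median of 6.24 over all genes. Without the minimum change, 31 list genes were higher and 20 lower, beside 25.3% and 25.7% of all genes.

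Leaving out 1 library at a time gave 3 to 8 resistant-only regions at PPARGC1A, 16 to 25 LNCaP-only and 1 to 5 resistant-only regions at the other genes, 5 to 12 lower genes in the lists, and a median change at the 5′ ends of the 6 genes from -1.99 to 5.99. Both the 8 and the 5 came without resistant replicate 2. The 12 came without resistant replicate 1, and without LNCaP replicate 1 there were 10. The labels give both cell types the same repeat numbers, and the replicate block, the mean of the within-number values, gave 6 resistant-only regions at PPARGC1A and 26.5 and 4.5 at the other genes. Within number 1 there were 8 resistant-only regions at PPARGC1A and 26 and 6 at the other genes. Within number 2 there were 27 and 3 at the other genes, and 16 list genes were lower. Same-numbered libraries did not deviate together at 5′ ends, since the difference between replicates 1 and 2 in LNCaP and in resistant cells had r = 0.0309 across 13576 genes, which are not independent. Restricting the lists to genes with a promoter entry, an alternative chosen after seeing the data, gave 14 higher and 4 lower genes. The lists hold no depth, 1 resistant list holds 45618 summits against up to 117245, and weak regions may be missing from it.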
